A study of Mus musculus with 3 samples.

Results

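The variable genes of the immunoglobulin kappa light chain (Igkv) were taken as every gene whose symbol begins with Igkv, which gave 160 of the 32285 genes counted. The annotation of the mouse build GRCm38 (mm10) placed all 160 on chromosome 6, 100 as V genes and 60 as pseudogenes, in 20 families. Each cell was given the Igkv gene with most unique molecular identifiers (UMIs, tags that mark single captured RNA molecules) as its leading gene, and the cell was counted as called when that gene had at least 3 UMIs. The membership rule used names only, so no measured value chose the genes. UMIs of 130 Igkv genes were found, and the 30 others, 29 pseudogenes and 1 V gene, had none in any library.

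The cells were B cells of the spleen, taken 10 days after mice received a single immunization with sheep red blood cells, and were captured as single cells with the 10x 3′ chemistry. The samples comprised 1 library of wildtype mice (WT), 1 of 3′RR-BCL2 mice and 1 of Igκ-BCL2 mice, and the immunization was the same in all. In 3′RR-BCL2 mice a randomly integrated transgene holds human BCL2, with its own P1 and P2 promoters, under the core of the IgH 3′ regulatory region. In Igκ-BCL2 mice the same cassette replaces the J segments of the kappa locus, just before the Eκ enhancer. BCL2 is an inhibitor of cell death. The background was mixed B6/129, and the study kept Igκ-BCL2 mice with the cassette on 1 or on both kappa alleles and describes its main characterization as done on hemizygous mice, without repeating this for the sequenced cells. By label the WT cells were sorted B cells and those of the BCL2 mice whole tissue cells, while the methods describe magnetic B cell selection for all. With 1 library per genotype no difference between genotypes could be tested. All intervals are exact 95% intervals and cover counting error only. UMIs of 1 cell are not independent molecules of different cells, so intervals on shares of UMIs are too narrow, and for the main genes ratios by cells with a UMI are given beside them.

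In the bone marrow a B cell builds its kappa chain by joining 1 V gene to a J segment that lies before the constant gene Igkc. The V genes lie in either orientation, so that the join deletes or inverts the DNA in between, and further joins to upstream V genes can replace an earlier one, a process called receptor editing. A cell that makes no usable kappa chain can use the lambda locus instead, and the germinal center (GC) and plasma cells of a response carry the chain that their B cell precursor made.

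The kappa locus of the annotation ran from Igkv2-137 at chr6:67555497-67556216, the V gene farthest from the J segments, to Igkc at chr6:70726435-70726966. The Igkv genes lay 18.984 to 3167.065 kb from the start of Igkj1, 75 in the orientation of Igkj1 and 85 in the opposite one. Many are close copies, since 109 of the 160 had another member at 90% identity or more and 24 had one at 97% or more over the aligned V exon, and 3′ reads of such genes could not always be told apart. The pairs below had the most cells holding a UMI of each gene, and are shown for how little separates them. They are the last 120 bases of the V exon, 5′ to 3′ on the coding strand, with capitals at the bases that differ within the pair, 4 in the first pair and 9 in the second. The first pair is Igkv1-117 (chr6:68121708-68121827, plus strand) and Igkv1-110 (chr6:68271148-68271267, plus strand), and the second is Igkv12-44 (chr6:69814631-69814750, minus strand) and Igkv12-46 (chr6:69764523-69764642, minus strand).
Igkv1-117: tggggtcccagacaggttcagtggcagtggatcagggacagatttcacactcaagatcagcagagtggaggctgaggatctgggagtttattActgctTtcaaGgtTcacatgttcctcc
Igkv1-110: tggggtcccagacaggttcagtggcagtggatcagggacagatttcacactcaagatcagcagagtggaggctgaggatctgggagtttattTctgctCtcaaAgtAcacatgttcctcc
Igkv12-44: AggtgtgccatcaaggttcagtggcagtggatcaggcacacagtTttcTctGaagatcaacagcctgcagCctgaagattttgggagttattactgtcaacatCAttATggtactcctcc
Igkv12-46: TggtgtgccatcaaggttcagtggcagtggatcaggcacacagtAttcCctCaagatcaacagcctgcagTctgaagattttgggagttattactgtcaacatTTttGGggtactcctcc

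Further genes are shown for their use below, with the last 60 bases of the V exon. Capitals mark the codon of the conserved cysteine that lies just before the third complementarity-determining region. Igkv1-135 (chr6:67610449-67610508, plus strand) and Igkv6-15 (chr6:70406469-70406528, minus strand) were among the most used genes. Igkv2-137 (chr6:67556157-67556216, plus strand), Igkv4-51 (chr6:69681406-69681465, minus strand) and Igkv3-12 (chr6:70518790-70518849, plus strand) differed most in share between Igκ-BCL2 and WT. Igkv2-109 (chr6:68303099-68303158, plus strand) had few UMIs in GC cells. The codon was found by the motif TANTNNTGN on the coding strand, which had a match in the last 60 bases of 97 of 100 V genes and 37 of 60 pseudogenes, 83.8% of all members.
Igkv1-135: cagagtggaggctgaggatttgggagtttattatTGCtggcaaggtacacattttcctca
Igkv6-15: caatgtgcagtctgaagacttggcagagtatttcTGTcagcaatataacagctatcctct
Igkv2-137: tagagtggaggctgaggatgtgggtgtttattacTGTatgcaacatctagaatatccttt
Igkv4-51: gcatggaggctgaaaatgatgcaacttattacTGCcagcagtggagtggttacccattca
Igkv3-12: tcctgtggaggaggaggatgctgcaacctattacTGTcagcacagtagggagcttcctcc
Igkv2-109: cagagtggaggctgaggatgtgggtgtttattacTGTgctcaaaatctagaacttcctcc

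The WT, 3′RR-BCL2 and Igκ-BCL2 libraries held 11269, 7579 and 7034 barcodes, of which 9932, 6561 and 6243 passed the study's limits on genes, UMIs and mitochondrial and ribosomal shares and had fewer than 2 UMIs of Cd3 genes and of C1q genes. Cells with UMIs of at least 3 of 8 GC genes are called GC-marker cells here, and there were 101, 815 and 366 of them. Cells with at least 20 UMIs of Jchain, which joins IgM and IgA chains into polymers, and UMIs of at least 3 of 8 plasma cell genes are called plasma-marker cells, of which there were 18, 31 and 25, and 13, 24 and 11 of these were kept although they passed the upper limit of 20000 UMIs. These classes are ranges of marker counts: 25, 227 and 117 GC-marker cells stood at the limit and 30, 286 and 185 cells lay 1 gene below it. The summed level of the GC genes was 1557, 1406 and 1321 UMIs per 1000000 in GC-marker cells against 11.3, 51.0 and 39.1 in the remaining B cells. In plasma-marker cells the plasma genes summed to 11469, 12331 and 29596 per 1000000, and the GC genes to 1128, 1376 and 572. UMIs of 3 or more GC genes were found in 11 of the 18, 29 of the 31 and 9 of the 25 plasma-marker cells. In the remaining B cells the Cd3 genes summed to 1.02, 1.83 and 1.34 per 1000000 and the C1q genes to 0.247, 0.180 and 0.0320, low by the filter on these genes. The neutrophil and monocyte genes S100a8, S100a9, Lyz2 and Ly6c2, on which no filter was set, summed to 52.3, 15.8 and 3.20 per 1000000 there, so WT was highest, and their part in the comparisons of libraries was not tested. Doublets were not removed, and 15 to 24 barcodes were shared by a pair of libraries.

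Igkv transcripts were scarce in GC-marker and remaining B cells and abundant in the most plasma-like cells. In the GC-marker and remaining B cells together there were 4931, 3495 and 2453 Igkv UMIs in 9927, 6554 and 6230 cells of the WT, 3′RR-BCL2 and Igκ-BCL2 libraries, at median depths of 5030, 5289.5 and 4831.5 UMIs. About 1 Igkv UMI came with every 100 Igkc UMIs, at 1.01 (0.986–1.04), 0.956 (0.925–0.988) and 1.17 (1.13–1.22). At least 1 Igkv UMI was found in 35.0%, 35.7% and 27.7% of these cells. A call was reached in 165 cells (1.66%, 1.42–1.93%), 145 cells (2.21%, 1.87–2.60%) and 97 cells (1.56%, 1.26–1.90%). The calls therefore rest on a small fraction of the B cells, and the leading gene of a called cell had a median of 3 UMIs in every library. Igkj UMIs numbered 0, 1 and 0, so J use could not be read.

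Barcodes with T cell or macrophage markers and lambda cells were set beside these shares. Of the barcodes past the limit on Cd3 and C1q genes, 25% of 24, 15.8% of 19 and 18.8% of 16 had an Igkv UMI, with 0, 1 and 0 calls, at median depths of 4791, 6135 and 7758.5 UMIs. Cells were also split by their constant genes: mostly lambda cells had at least 5 light chain UMIs of which at least 80% came from Iglc1, Iglc2 and Iglc3, and mostly kappa cells had at least 80% from Igkc. Of the mostly lambda cells 5.81% of 327, 7.94% of 214 and 7.97% of 1418 had an Igkv UMI, at median depths of 4792, 5106.5 and 4543, and 0, 1 and 2 were called. Of the mostly kappa cells 39.2% of 5090, 39.5% of 3581 and 36.6% of 2088 had an Igkv UMI, and 105, 95 and 49 were called. The kappa cells thus stood well above the lambda cells of their own library, and the Cd3 or C1q barcodes lay between them. Those barcodes were not free of kappa RNA. Their median Igkc was 25, 38 and 26 UMIs, against 44, 49 and 29 in GC-marker and remaining B cells and 1, 2 and 3 in mostly lambda cells.

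The Igκ-BCL2 library had fewer cells with an Igkv UMI than the other libraries, and it also had more lambda cells. Its share of cells with an Igkv UMI was 0.793 of that of WT (0.748–0.840). After thinning of each cell to 2000 UMIs the shares were 15.5%, 15.7% and 13%, with ratios to WT of 1.01 (0.932–1.10) for 3′RR-BCL2 and 0.838 (0.768–0.914) for Igκ-BCL2. Mostly lambda cells made up 3.29% (2.95–3.66%), 3.27% (2.85–3.72%) and 22.8% (21.7–23.8%) of the cells, and mostly kappa cells 51.3%, 54.6% and 33.5%. Within the mostly kappa cells the Igkv level was 105, 103 and 103 UMIs per 1000000, and the ratio of Igκ-BCL2 to WT was 0.980 (0.913–1.05). Per 100 Igkc UMIs these cells held 0.978, 0.923 and 1.03 Igkv UMIs. By that measure the ratio of Igκ-BCL2 was 1.05 (0.977–1.12) to WT and 1.11 (1.03–1.19) to 3′RR-BCL2. Mostly lambda cells held 2.87, 2.91 and 2.84 per 100 Igkc UMIs. Over all B cells the Igkv level of the Igκ-BCL2 library was lower, 71.6 against 85.6 UMIs per 1000000 in WT (ratio 0.836, 0.797–0.878). This lower level was not seen among its mostly kappa cells. Such cells were chosen by their share of Igkc, to which the Igkv genes are spliced, so their Igkv level is not independent of the choice. Whether the lambda cells account for the lower level was not tested. The mostly kappa cells were 2088 of the 6230 cells of Igκ-BCL2 with 1111 of 2453 Igkv UMIs, and in WT 5090 of 9927 cells with 2865 of 4931. Many cells of every library fell in neither the mostly kappa nor the mostly lambda set.

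The share of called cells was higher in the 3′RR-BCL2 library than in WT beyond counting error, the only error that 1 library gives, but not under every setting. The ratio was 1.33 (1.06–1.67) without thinning, and after thinning 19 of the 3′RR-BCL2 cells (0.297%) and 12 of the WT cells (0.123%) kept a call, a ratio of 2.42 (1.11–5.46). The interval included 1 with at least 2 UMIs per call (1.19, 0.908–1.55), when thinned to 4000 UMIs (1.47, 0.986–2.20) and among mostly kappa cells without thinning (1.29, 0.964–1.71). For Igκ-BCL2 over WT the ratio was 0.937 (0.721–1.21) without thinning, and 1.47 (0.586–3.63) on 11 cells (0.180%) after it. Among mostly kappa cells after thinning, 10 Igκ-BCL2 cells (0.489%) and 16 3′RR-BCL2 cells (0.459%) kept a call against 5 of WT (0.100%). The ratios were 4.88 (1.52–18.2) and 4.58 (1.60–15.98) on these few cells of a single random draw, while without thinning the Igκ-BCL2 ratio was 1.14 (0.793–1.61). The 3′RR-BCL2 ratio went with the 3-UMI rule, since the shares of cells with at least 1 UMI of these libraries differed by less than their counting error.

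**Figure D1:**
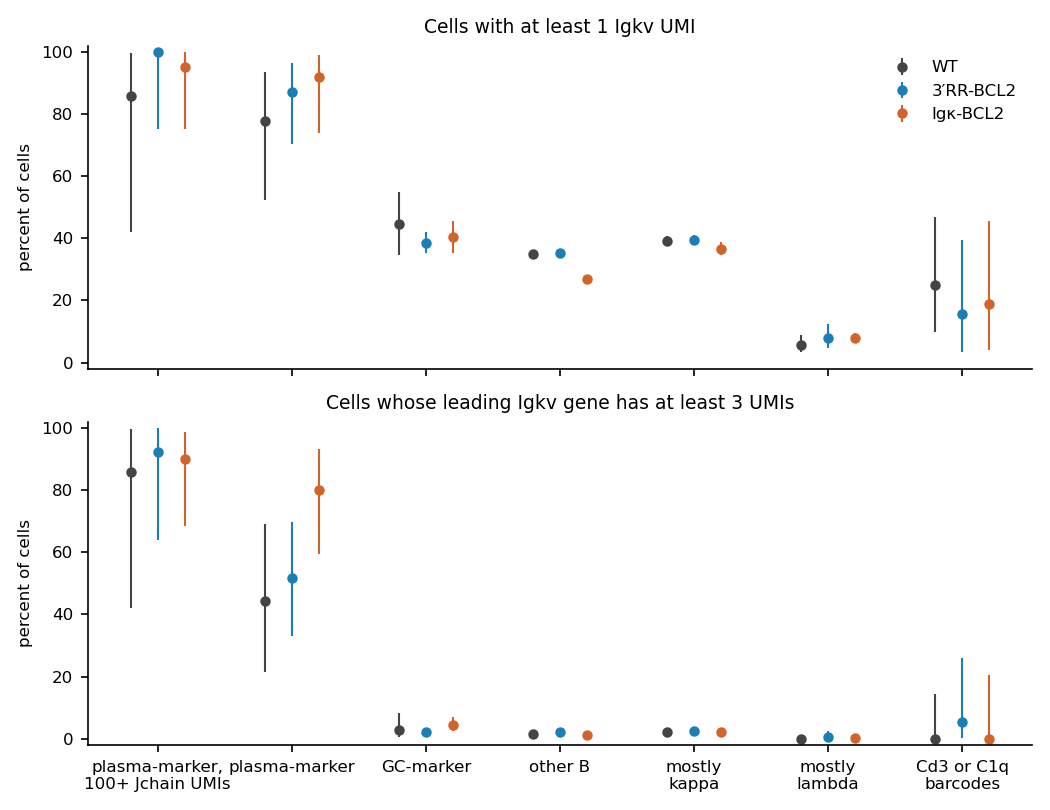
Percent of cells with at least 1 Igkv UMI (upper) and with a leading Igkv gene of at least 3 UMIs (lower) in 7 sets of cells (sets overlap) of the WT (grey), 3′RR-BCL2 (blue) and Igκ-BCL2 (orange) libraries; points are shares and bars exact 95% binomial intervals. Calls reach 85.7% to 92.3% in plasma-marker cells with at least 100 Jchain UMIs and stay under 5% in GC-marker, remaining, mostly kappa and mostly lambda cells.

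The Igkv UMIs of a cell mostly named the same V gene. A pair of Igkv UMIs drawn from 1 cell fell on the same gene in 58.2%, 62.7% and 69.0% of draws over the 1024, 751 and 515 cells with at least 2 such UMIs. A pair drawn from different cells did so in 2.74%, 2.77% and 3.01%. Of the cells with exactly 2 Igkv UMIs, 57.9% (54.2–61.5%), 63.6% (59.1–67.9%) and 66.9% (61.9–71.7%) had both from the same gene. In called cells the leading gene held at least 80% of the Igkv UMIs in 81.2%, 82.8% and 90.7% of cells. The remainder of cells held UMIs of other V genes, for which close copies, free RNA and doublets were not separated.

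The 10 most used genes, ranked by the mean of the 3 library shares of called cells, were led by Igkv12-44 (ENSMUSG00000096422), which led in 17 cells of WT, 20 of 3′RR-BCL2 and 12 of Igκ-BCL2, that is 10.3% (6.12–16%), 13.8% (8.63–20.5%) and 12.4% (6.56–20.6%) of calls. Igkv1-135 (ENSMUSG00000096336) led in 17, 11 and 7 cells and Igkv1-117 (ENSMUSG00000094335) in 12, 8 and 10. Igkv6-15 followed with 10, 9 and 7 cells, and Igkv1-110 with 3, 9 and 5. The intervals of all 5 genes overlapped among the 3 libraries. Igkv5-43 led in 6, 9 and 3 cells, Igkv17-127 in 8, 2 and 6, Igkv12-46 in 8, 5 and 2, Igkv10-96 in 5, 3 and 5, and Igkv6-17 in 7, 4 and 2. These 10 of 160 genes held 56.4%, 55.2% and 60.8% of the called cells and 42.1%, 42.9% and 43.7% of the Igkv UMIs, and 8 of them were also among the top 10 by UMIs. Several have a close copy in the locus, at 99% identity for Igkv5-43 with Igkv5-45 and 97.9% for Igkv17-127 with Igkv17-121.

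By UMIs, which count every cell, Igkv12-44 took 6.17%, 6.32% and 7.05%, Igkv1-117 6.06%, 6.41% and 7.91%, and Igkv1-135 5.58%, 5.95% and 5.38% of all Igkv UMIs in WT, 3′RR-BCL2 and Igκ-BCL2. The largest share of any gene was 6.17%, 6.41% and 7.91%, and 13, 13 and 12 genes were needed to cover 50% of them. Pseudogenes held 2.35%, 1.69% and 2.69%, and genes with a copy at 97% identity or more held 15.3%, 15.5% and 15.3%.

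**Figure D2:**
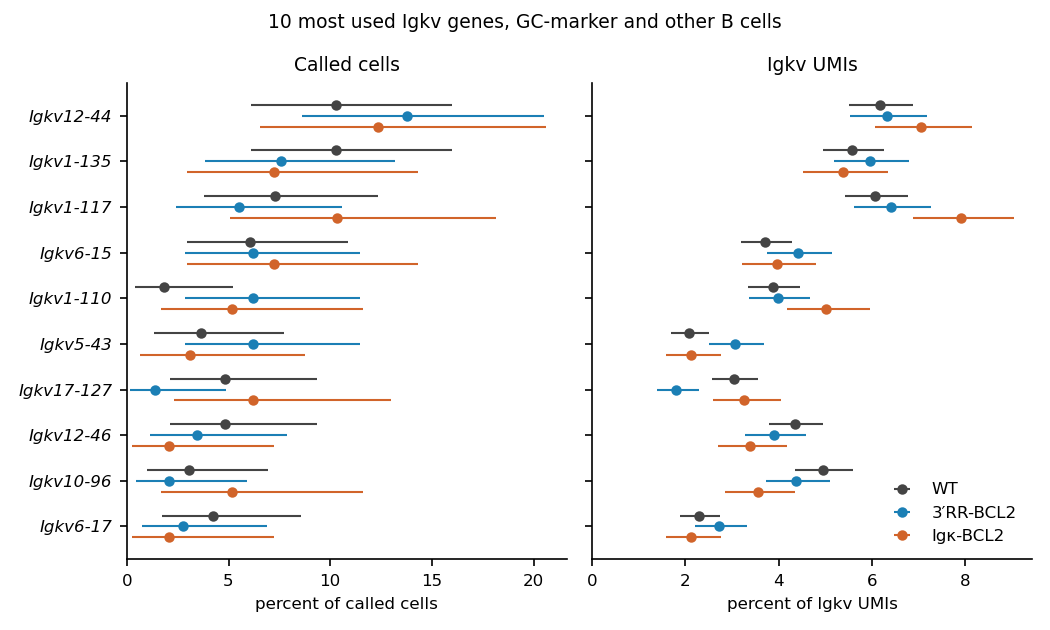
Share of the called cells (left) and of the Igkv UMIs (right), in percent, of the 10 most used Igkv genes in GC-marker and remaining B cells of the 3 libraries (grey WT, blue 3′RR-BCL2, orange Igκ-BCL2); bars are exact 95% binomial intervals. The libraries overlap for nearly all genes by calls, and by UMIs Igkv17-127 stands apart at 1.80% in 3′RR-BCL2 against 3.04% in WT and 3.26% in Igκ-BCL2.

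The repertoire was diverse in all libraries, and the indices of diversity over called cells differed by less than their SE. The inverse Simpson index, which is the number of equally used genes that would give the same chance of drawing a gene again, was 23.9 ± 3.0 (SE, 165 calls in 44 genes) in WT. It was 23.5 ± 3.84 in the 3′RR-BCL2 library (145 calls in 48 genes) and 22.5 ± 3.97 in the Igκ-BCL2 library (97 calls in 36 genes). For called cells the SE is for the sampling of cells within a library. At an equal 97 calls, 35.4, 39.3 and 36.0 genes were found. On UMIs the index was 36.4 ± 0.73, 35.9 ± 0.90 and 32.9 ± 1.03, and an equal 2453 UMIs named 112, 107 and 107 genes. These SEs take each UMI as an independent draw and are too small, since the UMIs of a cell mostly named the same gene. On UMIs the index of Igκ-BCL2 was the lowest, by a difference that such SEs cannot judge.

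The shares of the Igkv UMIs were alike in the libraries gene by gene. Across the genes with a UMI in either library, Pearson's r of the shares was 0.978 for WT with 3′RR-BCL2 (127 genes), 0.959 for WT with Igκ-BCL2 (126 genes) and 0.956 for 3′RR-BCL2 with Igκ-BCL2 (120 genes), with Spearman's rho of 0.919, 0.899 and 0.866. The genes are not independent replicates, and they share the locus, the capture chemistry and the read assignment. The part of the repertoire held in common, summed over genes as the smaller of the 2 shares, was 89.0%, 86.1% and 84.7%.

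Levels per 1000000 of all UMIs set the Igkv genes beside the other genes. A fold past 2, on genes with at least 50 UMIs in the 2 libraries together, was reached by 0 of 41 Igkv genes for 3′RR-BCL2 over WT, where 3.83% of 12297 genes passed. An interval of the ratio that left out 1 was found for 5 of the 41 (4 higher, 1 lower), against 52.3% of all genes. For Igκ-BCL2 over WT, 4 of 39 passed the fold (4.77% of 12270 genes did), with Igkv2-137 higher at a ratio of 3.14 (1.85–5.46) and Igkv10-94 (0.475), Igkv6-32 (0.463) and Igkv3-12 (0.330) lower. The interval left out 1 for 13 of the 39 (2 higher, 11 lower; all genes 51.4%). For Igκ-BCL2 over 3′RR-BCL2, 1 of 34 passed the fold (all genes 3.41%), again Igkv2-137 at 2.80 (1.58–5.15), and the interval left out 1 for 14 of the 34 (2 higher, 12 lower; all genes 50.5%). Past 2-fold, the Igkv genes were above the share over all genes for Igκ-BCL2 over WT and near it or under it in the other comparisons, and by the interval they were under it in all 3. The share over all genes was not matched for counts, on which the width of an interval depends. For 3′RR-BCL2 over WT, Ebf1 with 57771 and 91260 UMIs left out 1 at 0.909 (0.900–0.919), where Igkv1-117 had 224 and 299 UMIs. Whether Igkv genes differed less than other genes of like counts was not tested. In both comparisons of Igκ-BCL2 most Igkv intervals that left out 1 were on the lower side. The median log2 ratio of the Igkv genes was −0.06, −0.31 and −0.25, beside −0.06, 0.02 and 0.07 over all genes. These sums run over kappa and lambda cells, so shares within the Igkv UMIs follow. No gene was called in 50 cells, the number that the rule for naming genes asked for, so UMIs and cells with a UMI were used in its place.

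Igκ-BCL2 and WT differed in a few genes spread over the locus. Igkv2-137 (ENSMUSG00000076501), the outermost V gene, had 23 UMIs in 22 WT cells, 18 in 15 3′RR-BCL2 cells and 43 in 34 Igκ-BCL2 cells. These were 0.466%, 0.515% and 1.75% of the Igkv UMIs, a ratio of Igκ-BCL2 over WT of 3.76 (2.22–6.53), or 3.11 (1.76–5.57) by cells with a UMI. No cell held more than 4 of its UMIs, so the difference did not lie in a single cell. Among the mostly kappa cells the ratio was 3.68 (1.27–11.4), on 10 UMIs against 7. Igkv4-51 (ENSMUSG00000094993) had 70, 57 and 68 UMIs in 64, 52 and 60 cells, or 1.42%, 1.63% and 2.77%, with a ratio of 1.95 by UMIs and 1.88 by cells. It was also higher among mostly kappa cells, at 2.05 (1.13–3.66). Igkv1-117 had a ratio of 1.30, which among mostly kappa cells was 1.21 (0.941–1.53).

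Lower in Igκ-BCL2 were Igkv3-12 (ENSMUSG00000094117), 204.312 kb from Igkj1, with 51, 34 and 10 UMIs in 41, 28 and 10 cells, and a ratio to WT of 0.394 (0.178–0.785). Igkv12-89 had 113, 59 and 35 UMIs, with a ratio of 0.623, or 0.605 (0.391–0.911) by cells with a UMI. Igkv10-96, whose copy Igkv10-94 is 94.6% identical, had 244, 153 and 87 UMIs in 205, 125 and 67 cells and a ratio of 0.717. Of these, Igkv12-89 was also lower among mostly kappa cells, at 0.392 (0.149–0.875). Igkv3-12 had a ratio of 0.368 (0.0939–1.05) there, and Igkv10-96 of 0.949 (0.662–1.34), so that its lower share was not seen among kappa cells. In all, the interval of the UMI share ratio left out 1 for 9 of 39 genes, 4 higher and 5 lower, and for 8 of 35 by cells with a UMI. Shares within the Igkv UMIs exist for Igkv genes only. Such counts of genes, here and below, therefore have no share over all genes beside them, and by UMIs they rest on intervals that are too narrow.

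3′RR-BCL2 and WT differed less, with 6 of 41 genes by UMIs and 3 of 39 by cells. Igkv17-127 (ENSMUSG00000076508) had 150, 63 and 80 UMIs in 115, 49 and 48 cells, with WT first and Igκ-BCL2 last. Its ratio for 3′RR-BCL2 over WT was 0.593 by UMIs, 0.633 by cells and 0.515 (0.352–0.741) among mostly kappa cells. The most UMIs of Igkv17-127 in a cell were 3, 4 and 13, so part of its Igκ-BCL2 value came from a single cell. Igkv6-20 was lower at 0.698 (0.483–0.997), but its cells with a UMI gave 0.837 (0.553–1.25). Higher were Igkv5-43 (102 and 107 UMIs, ratio 1.48, 1.12–1.96), Igkv6-23 (114 and 111 UMIs, 1.37, 1.05–1.80) and Igkv3-10 (24 and 31 UMIs, 1.82). For Igkv5-43, cells with a UMI gave 1.39 (0.983–1.95) and mostly kappa cells 1.47 (1.02–2.11). For Igkv6-23 these were 1.39 (1.02–1.89) and 1.19 (0.838–1.68), so that its interval included 1 among kappa cells. Igkv5-48, with 73 and 34 UMIs, had an interval that just included 1, at 0.657 (0.424–1.0). Between the BCL2 libraries 8 of 34 genes by UMIs and 4 of 26 by cells had an interval leaving out 1. Igkv2-137 (ratio of Igκ-BCL2 over 3′RR-BCL2 3.40), Igkv17-127 (1.81) and Igkv4-51 (1.70) were higher in Igκ-BCL2, and Igkv6-23 (0.667) and Igkv5-43 (0.692) lower. By cells with a UMI, Igkv4-51 stood at 1.56 (1.06–2.31), Igkv5-43 at 0.627 (0.399–0.967), Igkv6-23 at 0.660 (0.443–0.970) and Igkv17-127 at 1.32 (0.871–2.01), an interval that includes 1. Among mostly kappa cells Igkv17-127 had a ratio of 2.76 (1.83–4.19), Igkv5-43 of 0.519 (0.290–0.883) and Igkv4-51 of 1.64 (0.901–2.98), and Igkv6-23 turned to the other side of 1, at 1.07 (0.691–1.63).

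**Figure D3:**
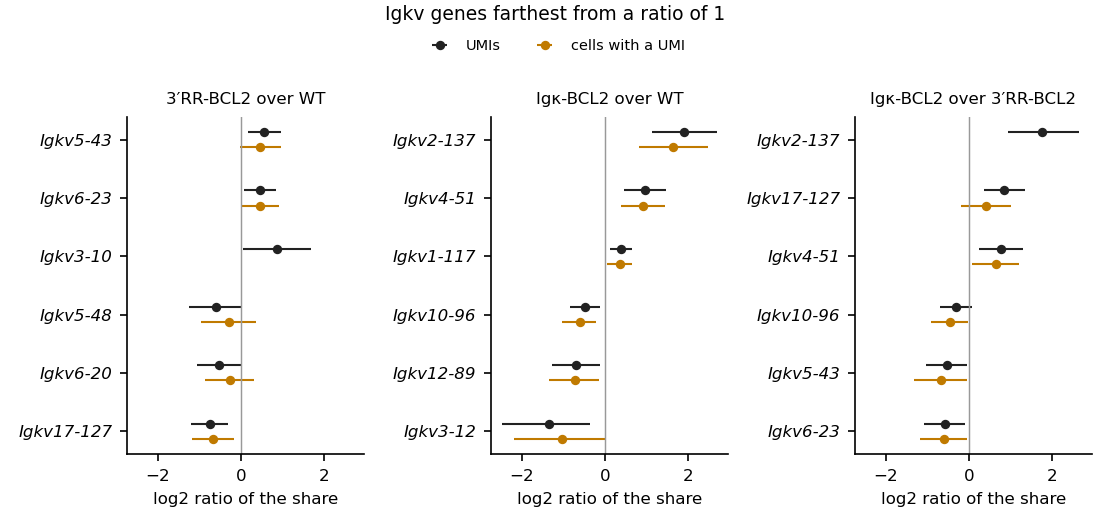
Log2 ratio between libraries of the share of Igkv UMIs (black) and of the cells with an Igkv UMI that held that gene (orange) for the 3 higher and 3 lower genes of each comparison whose interval lay farthest from 1; bars are exact 95% intervals and the grey line marks no difference. Igkv2-137 lies at a log2 ratio of 1.91 (1.15 to 2.71) for Igκ-BCL2 over WT by UMIs. Genes with under 50 cells have no orange point.

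By family, named by the first number of the symbol, 16.7%, 17.5% and 19.2% of UMIs came from family 1, 14.0%, 12.8% and 13% from family 12, and 13.8%, 15.4% and 13.6% from family 6. Family 2, to which Igkv2-137 and Igkv2-109 belong, held 4.42%, 3.86% and 6.69%, a ratio of Igκ-BCL2 over WT of 1.51 (1.23–1.86) by UMIs and 1.46 (1.17–1.82) by cells with a UMI. Among mostly kappa cells the family was at 1.03 (0.696–1.502), and Igkv2-109 at 0.767 (0.453–1.25) against 1.27 (0.966–1.66) in all cells, so the higher share of the family was not seen there. Family 10 had a ratio of 0.668 (0.529–0.837) by UMIs, 0.616 (0.475–0.794) by cells and 0.818 (0.587–1.12) among mostly kappa cells. Family 3 stood at 0.752 (0.616–0.913), at 0.780 (0.622–0.973) by cells and at 0.642 (0.478–0.851) among mostly kappa cells. The leading families were the same in all libraries. For 3′RR-BCL2 over WT, family 17 stood at 0.737 (0.596–0.908), at 0.764 (0.600–0.970) by cells and at 0.674 (0.526–0.860) among mostly kappa cells.

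By position, the Igκ-BCL2 library used more of the outermost V genes and fewer of those next to them. The span from Igkj1 to the outermost V gene was cut into 4 segments of equal length, which held 39, 48, 37 and 36 members from the nearest to the outermost. The outermost segment held 31.5% (30.2–32.8%) of the Igkv UMIs in WT, against 30.8% (29.3–32.4%) for the 3′RR-BCL2 library and 37.9% (35.9–39.8%) for Igκ-BCL2, and the third segment held 18.5%, 16.9% and 14.4%. The nearest segment held 27.6%, 29.0% and 24.9%, and the second 22.5%, 23.3% and 22.8%. For the outermost segment the ratio to WT was 0.979 (0.905–1.06) for 3′RR-BCL2 and 1.20 (1.11–1.31) for Igκ-BCL2. The latter was 1.18 (1.08–1.28) without Igkv2-137, 1.16 (1.06–1.28) by cells with a UMI, and 1.16 (1.04–1.31) among mostly kappa cells. By cells with a UMI among mostly kappa cells it was 1.10 (0.955–1.26), an interval that includes 1. The third segment went the other way, at 0.778 (0.686–0.881), or 0.754 (0.656–0.865) by cells with a UMI and 0.664 (0.540–0.811) among mostly kappa cells. The outer 2 segments together had a ratio of 1.05 (0.976–1.12), and of 0.999 (0.905–1.10) among mostly kappa cells.

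Called cells, which are fewer, gave 33.9% (26.8–41.7%), 27.6% (20.5–35.6%) and 41.2% (31.3–51.7%) in the outermost segment, with intervals that overlap. Genes in the opposite orientation to Igkj1 held 52.9% (51.5–54.3%), 53.7% (52.0–55.3%) and 49.5% (47.5–51.4%) of the UMIs and led in 48.5%, 53.1% and 49.5% of called cells.

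**Figure D4:**
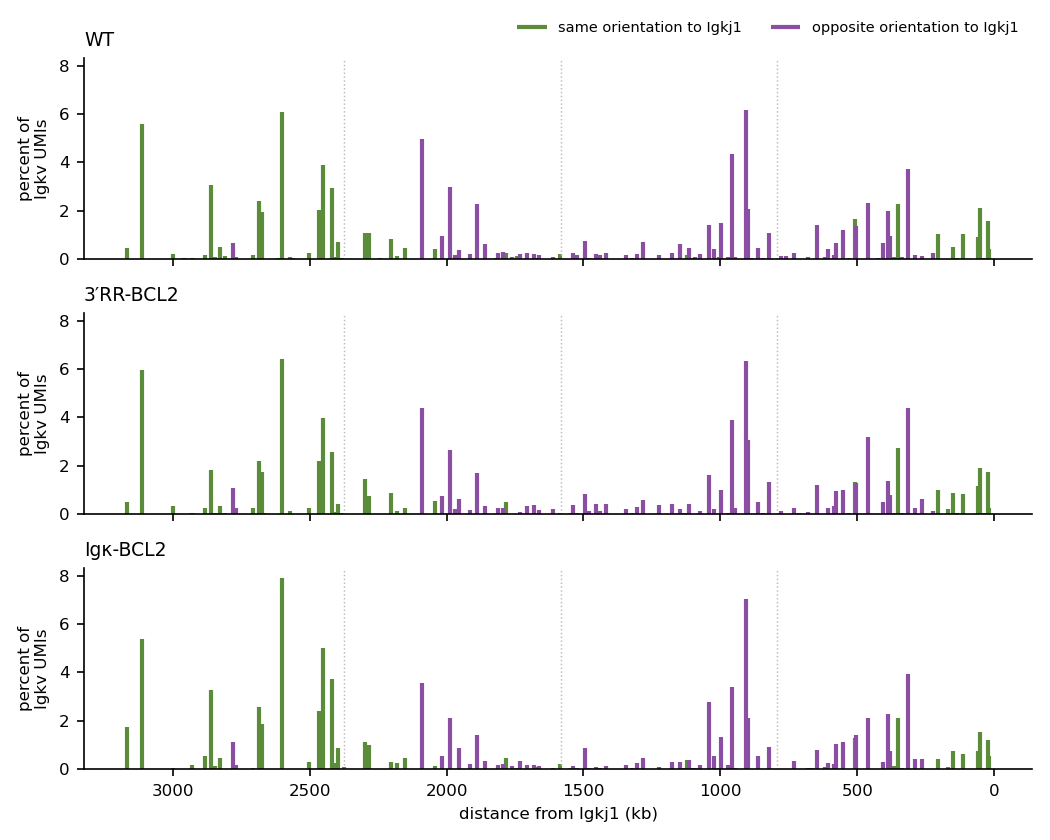
Percent of the Igkv UMIs of each library (GC-marker and remaining B cells) taken by each Igkv gene, against its distance from Igkj1 in kb, farthest at the left; green lines are genes in the orientation of Igkj1 and purple lines those in the opposite one, and dotted lines divide the span into 4 segments. The outermost segment holds 31.5%, 30.8% and 37.9% of the UMIs in WT, 3′RR-BCL2 and Igκ-BCL2.

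GC-marker cells held 68, 494 and 238 Igkv UMIs, and their calls were few. A call was found in 3 of 101 (2.97%, 0.617–8.44%), 19 of 815 (2.33%, 1.41–3.62%) and 16 of 366 (4.37%, 2.52–7.0%), at median depths of 10294, 7760 and 7811 UMIs, and at least 1 UMI in 44.6%, 38.5% and 40.4%. In the remaining B cells 162 of 9826 (1.65%), 126 of 5739 (2.20%) and 81 of 5864 (1.38%) were called. After thinning to 2000 UMIs, 13.1%, 12.2% and 15.2% of GC-marker cells and 15.5%, 16.1% and 12.8% of the remaining B cells had an Igkv UMI, and 0, 2 and 0 GC-marker cells kept a call. The thinned intervals of GC-marker and remaining B cells overlapped in WT (7.18–21.4% and 14.8–16.3%) and Igκ-BCL2 (11.7–19.3% and 11.98–13.7%), and in 3′RR-BCL2 GC-marker cells lay lower (9.99–14.7% and 15.2–17.1%). The 19 calls of 3′RR-BCL2 and the 16 of Igκ-BCL2 each spread over 14 genes, with at most 3 cells on a gene in 3′RR-BCL2, namely Igkv12-44 and Igkv1-110. The inverse Simpson index of the GC Igkv UMIs was 34.5 ± 7.17, 27.8 ± 2.14 and 29.9 ± 2.75, with SEs that take UMIs as independent. An equal 68 UMIs named 34, 33.6 and 31.9 genes.

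The most abundant genes in GC-marker cells were mostly those of the whole B cell pool. In WT they were Igkv12-46 with 6 UMIs, Igkv12-44 and Igkv1-117 with 5 each, and Igkv1-135, Igkv3-7 and Igkv14-111 with 4 each. In 3′RR-BCL2 they were Igkv6-15 (47 UMIs), Igkv1-117 (43), Igkv1-135 (31), Igkv12-44 (30) and Igkv1-110 (24). In Igκ-BCL2 they were Igkv1-135 (20), Igkv1-117 (16), Igkv12-44 (15), Igkv14-111 (15) and Igkv1-110 (11). Within the libraries, 1 of 31, 6 of 21 and 3 of 17 genes had a GC share of UMIs whose ratio to the remaining B cells left out 1. Those intervals are too narrow, and no count over other genes was made beside them.

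Igkv6-15 (ENSMUSG00000094797) stood out in the GC-marker cells of 3′RR-BCL2, with 9.51% of Igkv UMIs against 3.57% in the remaining B cells of that library, a ratio of 2.67 (1.85–3.79) on 47 UMIs in 24 cells, or 2.01 (1.21–3.21) by cells with a UMI. The ratio of Igkv6-15 by UMIs was 0.790 (0.0950–2.90) in WT and 0.724 (0.283–1.55) in Igκ-BCL2. Igkv1-117 was higher in 3′RR-BCL2 too, at 1.44 (1.01–2.02), or 1.56 (1.04–2.26) by cells. Its ratio by UMIs was 1.22 (0.392–2.87) in WT and 0.837 (0.468–1.40) in Igκ-BCL2. Igkv14-111 was higher in the GC-marker cells of Igκ-BCL2, at 6.30% against 1.99% (ratio 3.17, 1.64–5.81), on 15 UMIs in 9 cells, or 2.46 (1.05–5.17) by cells. In WT the ratio of Igkv14-111 was near that, at 2.98 (0.796–7.88), on 4 UMIs in 3 cells, with an interval that includes 1. In 3′RR-BCL2 it was 0.920 (0.422–1.80). The WT gene whose interval left out 1 was Igkv3-7, on 4 UMIs in 2 cells.

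Igkv2-109 (ENSMUSG00000105606) and Igkv4-51 were scarce in the GC-marker cells of both BCL2 libraries. In 3′RR-BCL2, Igkv2-109 had 4 UMIs in GC-marker cells and 85 in the remaining B cells (ratio 0.286, 0.0761–0.759), and Igkv4-51 had 2 and 55 (0.221, 0.0261–0.837), with ratios by cells of 0.248 (0.0500–0.751) and 0.258 (0.0304–0.981). In Igκ-BCL2 the counts were 0 and 91 for Igkv2-109 and 0 and 68 for Igkv4-51. A count of 0 among 238 UMIs allows a share of up to 1.26%, against 4.11% and 3.07% in the remaining B cells. WT GC-marker cells held only 68 Igkv UMIs in all. There Igkv2-109 had 1 UMI, against 143 in the remaining WT B cells, with a ratio interval of 0.0126–2.83. Igkv4-51 had 2 and 68 in WT, a ratio on the other side of 1, at 2.10 (0.2497–7.896). Both WT intervals include 1, so whether the scarcity was limited to the BCL2 libraries could not be read. Igkv17-127 (3 and 60 UMIs) and Igkv9-120 (2 and 59) were also lower in 3′RR-BCL2. Cells of 1 library are not replicates, and none of these differences was tested across animals.

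Igkv2-109, Igkv4-51 and Igkv12-89 were also set apart by how thinly their UMIs were spread. Among the 30 genes with at least 100 UMIs in the 3 libraries together, they had the fewest UMIs per cell with a UMI, 1.12 for Igkv2-109 and 1.11 for each of the others, where the median gene had 1.27 and Igkv5-43 and Igkv12-44 had the most, 1.49 and 1.47. In the mostly lambda cells of Igκ-BCL2, which held 134 Igkv UMIs of 44 genes, Igkv2-109 had 13 UMIs in 11 cells, 9.70% against 1.98% in the mostly kappa cells of that library (ratio 4.90, 2.27–10.2, or 3.55, 1.54–7.69, by cells with a UMI). Igkv4-51 had 11 in 11 cells, 8.21% against 2.07% (3.97, 1.75–8.47, or 3.39, 1.48–7.28, by cells). Igkv17-127, Igkv10-96 and Igkv6-23 were at 0 in these lambda cells, with 60, 46 and 36 UMIs in the kappa cells, where 3 of 134 UMIs would be 2.24%, and Igkv1-117 had 4 against 100. Thus 6 of 20 genes had an interval leaving out 1 between lambda and kappa cells of Igκ-BCL2, 1 of 37 in WT (Igkv12-89, with 4 UMIs against 46) and 0 of 32 in 3′RR-BCL2, where the lambda cells held only 22 and 21 Igkv UMIs. Pseudogenes took 13.6%, 14.3% and 11.2% of the Igkv UMIs in mostly lambda cells (3, 3 and 15 UMIs) and 1.5%, 1.21% and 1.26% in mostly kappa cells. The share of pseudogenes was thus higher in the lambda cells of every library.

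Plasma-marker cells with much Jchain carried most Igkv RNA per cell. A call was made in 8 of 18 (44.4%, 21.5–69.2%), 16 of 31 (51.6%, 33.1–69.8%) and 20 of 25 (80%, 59.3–93.2%) of the cells, libraries in the order used above, at median depths of 31500.5, 30152 and 17265 UMIs. After thinning to 2000 UMIs, 22.2%, 22.6% and 48% kept a call. The Igkv level was 443, 639 and 2056 UMIs per 1000000. It was 1744, 1601 and 2344 in the cells with at least 100 Jchain UMIs, and 48.0, 54.5 and 269 in the others, beside 85.9, 90.03 and 70.8 in the remaining B cells, so that most plasma-marker cells of WT and 3′RR-BCL2 were of a low level. These shares followed Jchain within the class: of cells with at least 100 Jchain UMIs, 6 of 7 (85.7%), 12 of 13 (92.3%) and 18 of 20 (90%) were called, and of those under 100, 2 of 11, 4 of 18 and 2 of 5. Since 7 of the 18 WT cells, but 13 of the 31 3′RR-BCL2 cells and 20 of the 25 Igκ-BCL2 cells, had at least 100 Jchain UMIs, the higher share of calls in Igκ-BCL2 moved with the makeup of the class, and its part in the result was not tested.

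**Figure D5:**
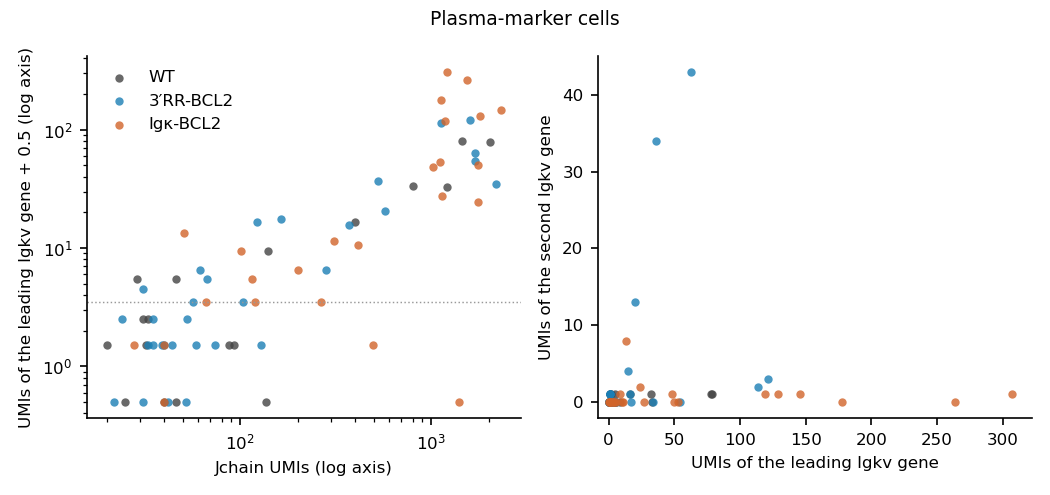
Each point is a plasma-marker cell of WT (grey), 3′RR-BCL2 (blue) or Igκ-BCL2 (orange). Left, Jchain UMIs against UMIs of the leading Igkv gene plus 0.5, both axes logarithmic, with the dotted line at 3 UMIs; right, UMIs of the leading gene against those of the second gene on linear axes. Leading genes reach 79, 121 and 307 UMIs in the 3 libraries, and the cells with many UMIs of a second gene are from 3′RR-BCL2.

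In the called plasma-marker cells no V gene dominated. The 8 WT calls fell on 8 genes, the 16 calls of 3′RR-BCL2 on 12 and the 20 of Igκ-BCL2 on 17, and the most frequent gene led in 1, 2 and 3 cells. That gene in Igκ-BCL2 was Igkv6-23. By UMIs a few cells decided the order, so the leading genes of the class are those of its richest cells. In WT these were Igkv5-48 (79 UMIs), Igkv4-61 (78), Igkv6-15 (34), Igkv10-94 (33) and Igkv8-30 (16). In 3′RR-BCL2 they were Igkv10-96 (125), Igkv12-46 (115), Igkv14-111 (70), Igkv5-39 (63) and Igkv12-89 (54). In Igκ-BCL2 they were Igkv1-117 (493), Igkv6-25 (264), Igkv12-46 (147), Igkv6-15 (129) and Igkv14-126 (119).

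In the richest cell or cells of each library nearly all Igkv UMIs came from a single gene, with exceptions further down in 3′RR-BCL2, where the leading gene held at least 80% in 8 of the 12 called cells with at least 100 Jchain UMIs. The richest WT cell had 79 Igkv5-48 UMIs of 80 Igkv UMIs and 12934 Igkc UMIs, and the next had 78 Igkv4-61 UMIs of 81. The richest 3′RR-BCL2 cell had 121 Igkv10-96 UMIs of 124. In Igκ-BCL2, a cell with 307 Igkv1-117 UMIs of 308 and another with 178 of 178 used the same V gene, but with the heavy chain V genes Ighv5-9-1 and Ighv1-36, at 121 and 128 UMIs. Another cell had 264 UMIs of Igkv6-25 and no UMI of another Igkv gene. Every called plasma-marker cell that also had a leading Ighv gene with at least 3 UMIs carried an Igkv and Ighv pair seen in no other of these cells of its library, 6 of 6, 9 of 9 and 17 of 17. In the cells with at least 1000 Igkc UMIs and a dominant gene, the leading gene had 0.305 to 1.65 UMIs per 100 Igkc UMIs, with medians of 0.615 (6 cells), 1.09 (5 cells) and 0.686 (14 cells). Of all plasma-marker cells, 1, 0 and 2 were lambda cells by their constant genes.

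A second Igkv gene, with at least 3 UMIs and 20% of the cell's Igkv UMIs, was found in 1 of 173 called WT cells (0.578%), in 5 of 161 called cells from the 3′RR-BCL2 library (3.11%) and in 1 of 117 from the Igκ-BCL2 library (0.855%), all classes together. Of the 5 cells of 3′RR-BCL2, 4 were plasma-marker cells. They held 20 UMIs of Igkv1-110 with 13 of Igkv8-30, 36 of Igkv14-111 with 34 of Igkv9-129, 63 of Igkv5-39 with 43 of Igkv4-86, and 15 of Igkv17-121 with 4 of Igkv3-1. The first also had 6 UMIs each of Ighv8-8 and Ighv1-61, so that a second heavy chain V gene was seen beside the second kappa V gene. The second had 12 UMIs of Ighv1-74 and 1 of Ighv9-1, and in the third, with 17 UMIs of Ighv1-20, no UMI of another Ighv gene was found. These 3 cells had 19629, 33926 and 39425 UMIs. The Igκ-BCL2 cell paired 13 UMIs of Igkv1-110 with 8 of Igkv1-117, which are 96.8% identical. Doublets were not removed, and their part in these cells was not tested.

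With a UMI of each gene as the rule, 1008 cells held 763 different pairs. The most frequent were Igkv1-117 with Igkv1-110 in 36 cells (14, 10 and 12 in WT, 3′RR-BCL2 and Igκ-BCL2) and Igkv12-46 with Igkv12-44 in 22 cells (12, 6 and 4), the near copies shown at the start. Igkv1-135 with Igkv12-44 and Igkv8-21 with Igkv6-20 followed in 12 cells each. Igkv1-110 with Igkv12-44, Igkv1-135 with Igkv1-117 and Igkv14-111 with Igkv1-110 each came in 10. Pairs at 90% identity or more made up 8.47% of all cases.

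The list of 21 light chain, recombination and B lineage genes was read beside the V genes, and 16 had at least 50 UMIs in each comparison. None of the 16 passed 2-fold for 3′RR-BCL2 over WT (all genes 3.83%), with 3 intervals above 1 and 7 below (all genes 52.3%), and the median log2 ratio was −0.01. For Igκ-BCL2 over WT 3 passed (all genes 4.77%), all higher, with 11 intervals above 1 and 3 below (all genes 51.4%) and a median log2 ratio of 0.21. For Igκ-BCL2 over 3′RR-BCL2 4 passed (all genes 3.41%), all higher, with 11 intervals above 1 and 3 below (all genes 50.5%) and a median of 0.37. The shares over all genes were not matched for counts. Those past 2-fold over WT were the lambda genes Iglc1 (472 and 1360 UMIs per 1000000, ratio 2.88), Iglv1 (10.3 and 27.7, ratio 2.70) and Iglv2 (0.573 and 3.85, ratio 6.73). Over 3′RR-BCL2 Iglv3 passed as well, at 2.60. Igkc, the constant gene that every joined Igkv gene is spliced to, stood at 8440, 9113 and 6104 UMIs per 1000000 in WT, 3′RR-BCL2 and Igκ-BCL2. Rag1 and Rag2 encode the recombinase that joins V to J, and their UMIs numbered 2, 12 and 16 for Rag1 and 0 in all libraries for Rag2.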

How the data were processed

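Splenic B cells of 3 libraries were analysed from the UMI counts per gene and barcode that the authors deposited, in whole numbers and not normalized, as 10x matrices of 32285 genes. The submitters' processing notes name Cell Ranger 6.1.1 and the builds mm10 and hg38; how reads of near-identical genes were counted was not given in the sources used here. All 3 libraries were mapped to their genotype by their labels. The Igkv genes, the gene lists and the tests were chosen with earlier results of these data known.

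After the study's limits, barcodes were kept that had from 800 up to 4500 genes, no more than 20000 UMIs, of which no more than 8% mitochondrial and 10% or more ribosomal, and under 2 UMIs of Cd3d, Cd3e and Cd3g and of C1qa, C1qb and C1qc. Libraries held 62777659 (WT), 45539172 (3′RR-BCL2) and 37433924 (Igκ-BCL2) UMIs. GC-marker cells had UMIs of at least 3 of 8 genes, which included S1pr2, Mef2b, Rgs13, Basp1, Nuggc, Mybl1 and Gcsam; the remaining gene of the list is not reported here. Plasma-marker cells had at least 20 Jchain UMIs and at least 3 of Sdc1, Prdm1, Tnfrsf17, Bhlha15, Derl3, Txndc5, Creld2 and Fkbp11, with no upper limit on genes or UMIs and no limit on ribosomal UMIs. Doublets were not called. Marginal zone marker cells (at least 3 of Fcrl5, Myof, Dtx1, S1pr3, Cd9 and I830077J02Rik) and transitional marker cells (at least 3 of Cd93, Myb, Sox4, Wfdc21, Vpreb3 and Igll1) were taken from the remaining B cells.

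Shares have exact Clopper-Pearson intervals and ratios of counts exact intervals, at 95%. Thinning drew 2000 UMIs per cell without replacement, in a single random draw, and the intervals do not cover the spread between draws. A count of 0 allows up to 3 counts. Levels are UMIs per 1000000 UMIs of the same cells, on genes with at least 50 UMIs in a pair of libraries. Positions, gene types and V exon sequences came from the GENCODE annotation of GRCm38, and identity from alignment of V exons.

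Named genes were the 10 with the highest mean share of called cells, the 3 higher and 3 lower genes of each pair of libraries whose interval lay farthest from 1, the 5 most abundant in GC-marker and plasma-marker cells of each library, the 5 most frequent pairs within a cell, and the list Igkc, Iglc1, Iglc2, Iglc3, Iglv1, Iglv2, Iglv3, Rag1, Rag2, Dntt, Vpreb1, Vpreb3, Igll1, Pou2af1, Pou2f2, Irf4, Irf8, Spi1, Tcf3, Ebf1 and Pax5. Other Igkv genes, such as Igkv2-109 and those past 2-fold per 1000000, were named after their values were seen.

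The ratio intervals were tried on simulated counts for each comparison, in which every UMI was an independent draw. UMIs of 1 cell are not independent, so this trial cannot show that the intervals are wide enough for the data. The true ratio lay within the interval for 95.6% of 12286 genes (3′RR-BCL2 over WT), 95.7% of 12281 genes (Igκ-BCL2 over WT) and 95.5% of 11999 genes (Igκ-BCL2 over 3′RR-BCL2). Alternatives were other minimum UMIs per call, thinning depths, classes, filters and measures; some, such as mostly kappa cells only and shares of UMIs of genes named above, were added after the data were seen. Python 3.11.15, numpy 2.4.6, scipy 1.17.1, pandas 2.3.3 and matplotlib 3.10.9 were used.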

Additional observations from a re-analysis of the deposited data

Results flagged for a closer look

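Barcodes outside every class of B cells, which the comparisons do not use, also held Igkv calls. They were found in 13 of 1295 such barcodes in WT (1.0%, 0.536–1.71%). The 3′RR-BCL2 library had 23 among 972 (2.37%, 1.51–3.53%), and the Igκ-BCL2 library 7 among 759 (0.922%, 0.372–1.89%). The 3′RR-BCL2 share was above the WT share, with a ratio of 2.36 (1.15–5.07). Of the called barcodes 12, 21 and 5 were over the limit of 20000 UMIs, which 89, 106 and 41 barcodes passed in all. Among those over the limit the ratio of 3′RR-BCL2 to WT was 1.47 (0.690–3.28). No group had 4 or more libraries, so no search for libraries standing apart could be made.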

How the results depend on the processing

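Of 127 values recomputed for 26 results, 80 kept within the limits set for the main value, 46 moved and 1 turned its direction. The log2 ratio of the share called in 3′RR-BCL2 over WT (1.27) was −0.038 among mostly kappa cells with at least 1 UMI, 0.015 with at least 1 UMI and 0.014 when thinned to 1000 UMIs. For Igκ-BCL2 over WT (0.55) it was −0.91 when thinned to 1000 and 2.29 (0.60 to 4.18) in mostly kappa cells. The inverse Simpson index was 14.0, 9.55 and 36.0 in WT, 3′RR-BCL2 and Igκ-BCL2 at 5 UMIs per call or more, and 37.3, 36.3 and 35.0 at 1 or more. Genes whose ratio of called shares left out 1 numbered 1 for 3′RR-BCL2 over WT (Igkv6-20, 0 cells against 6), which became 0 at 5 UMIs, for dominant genes and for remaining B cells only, 5 at 1 UMI, and 9 by UMIs or 6 by UMIs of mostly kappa cells, with no minimum of UMIs per gene. The 0 genes for Igκ-BCL2 over WT became 2 at 2 UMIs, 10 at 1 UMI, 14 by UMIs and 12 in mostly kappa cells, and the 0 for Igκ-BCL2 over 3′RR-BCL2 became 6, 16 and 8 at 1 UMI, by UMIs and in mostly kappa cells. At 10 UMIs per call, GC-marker calls were 0%, 0.123% and 0%, and plasma-marker calls 32.3% for 3′RR-BCL2 and 56.0% for Igκ-BCL2. Plasma-marker calls were 85.7% in WT and 92.3% in 3′RR-BCL2 with at least 100 Jchain UMIs, 85.7%, 100% and 93.3% with 5 of 8 plasma genes, 85.7%, 100% and 93.8% with under 3 GC genes, and 71.4% in 3′RR-BCL2 with at most 20000 UMIs. Second genes were at 0% of called cells in WT and Igκ-BCL2 at 10 UMIs, and to 0% in Igκ-BCL2 at 40% or without pairs 90% identical. Igkv genes past 2-fold per 1000000 (0, 4 and 1) numbered 6, 11 and 6 at 20 UMIs or more, and 0 for both comparisons of Igκ-BCL2 at 200 or more. The causes of these moves were not tested, beyond the fewer cells and genes that the stricter settings leave.

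No paired analysis was possible because each genotype had 1 library. For the same reason leaving out a library was not an option. Thinned shares at 5 or 10 UMIs per call and most values of diversity and use at 10 UMIs gave no value, with too few cells remaining. Depth limits the calls: the reads came from the 3′ end of transcripts and most cells had no Igkv UMI, so genes are compared mainly by UMIs, whose intervals leave out the spread between animals.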

Other observations

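Marginal zone marker cells, which numbered 393, 235 and 65 in the WT, 3′RR-BCL2 and Igκ-BCL2 libraries, held 286, 147 and 31 Igkv UMIs, at median depths of 9265, 9915 and 9295 UMIs against 4907, 5023 and 4690 in the remaining cells without these markers. In WT, Igkv2-109 took 6.64% of the Igkv UMIs of these cells, 19 UMIs in 19 cells, against 2.65% in the other cells, a ratio of 2.51 (1.46–4.09). In 3′RR-BCL2 it took 8.16% against 2.53%, a ratio of 3.23 (1.59–5.99). In Igκ-BCL2, with 3 UMIs, the ratio was 2.37 (0.480–7.17). Igkv9-120 (2.56), Igkv8-24 (2.55) and Igkv1-117 (1.60) were also higher in the marginal zone marker cells of WT, Igkv6-17 was lower with 1 UMI against 110, and Igkv14-111 was higher in those of 3′RR-BCL2 (3.47, 1.58–6.87). Thus 5 of 29, 2 of 19 and 0 of 14 genes had an interval leaving out 1. The outermost segment of the locus held 45.1% (39.2–51.1%), 43.5% (35.4–52.0%) and 41.9% (24.5–60.9%) of their Igkv UMIs. Without marginal zone and transitional marker cells, the ratio of the outermost segment for Igκ-BCL2 over WT was 1.22 (1.11–1.33).

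Transitional marker cells, 130, 45 and 48, held 115, 45 and 26 Igkv UMIs. Igkv12-46 was higher in those of WT, with 13 UMIs in 12 cells and a ratio of 2.71 (1.42–4.75), and Igkv1-135 in those of 3′RR-BCL2, with 10 UMIs in 6 cells and a ratio of 3.85 (1.81–7.26).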
